A study of Rattus norvegicus with 9 samples.

Results

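Hearts of hypertensive rats given allisartan were compared with hearts of the normotensive strain, to describe what the drug left unlike the normotensive heart and what the treated hearts alone showed. All 6 libraries labelled SHR+Allisartan (treated SHR) or WKY were used, out of 9 in the series, and all 22601 genes of the table. The first group is 3 libraries of spontaneously hypertensive rats (SHR) that received allisartan by mouth over 34 weeks, with distilled water as the vehicle. The SHR group is 3 libraries of rats of that strain given 1 ml of distilled water alone for as long. It is set beside the comparison, enters the estimate of the spread, and helps to define the gene classes below. The WKY group is 3 libraries of Wistar-Kyoto rats, also given the water alone. All rats were 48 weeks old, and the tissue is labelled heart with no chamber named. No label used here states the allisartan dose. Nor do the labels tie each library to a separate animal, and the spread that the p-values rest on may therefore be technical. Treated SHR and WKY hearts differ in strain and in drug at once, and the part of each cannot be told apart within this comparison. No WKY rats given the drug were analysed here.

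SHR is an inbred strain that becomes hypertensive as it ages and develops cardiac hypertrophy and fibrosis, and WKY is its usual normotensive control. Allisartan is a prodrug of an angiotensin II type 1 receptor blocker. That receptor raises blood pressure and aldosterone and drives growth of myocytes and matrix deposition by fibroblasts, so its blockers are used against hypertension and the remodelling that follows. Because both strains were bred apart, their hearts can also differ at genes unrelated to pressure.

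The deposited values are FPKM, fragment counts normalised to transcript length and to library size. They were rescaled by 1 factor per library, and levels below are rescaled FPKM. Of 22601 genes, 11717 passed a filter on low values and were tested with limma on log2(rescaled FPKM + 0.5). On this scale folds of weakly expressed genes come out too small. A gene is called at a Benjamini-Hochberg adjusted p under 0.05. Deposited FPKM summed to 359207 to 388172 per library, the scale factors ran from 0.965 to 1.044, and read depth is unknown. Steps between low FPKM values put the relative depth of the treated SHR libraries at 0.825 to 1.012 and that of the WKY libraries at 0.995 to 1.035. Libraries of 1 group correlated at 0.985 to 0.99 (Pearson, log2 scale), and treated SHR with WKY libraries at 0.97 to 0.973. Treated SHR lay apart from WKY mostly on the second principal component (28.6% of variance). Ventricular myocyte markers summed to 51807 to 54105 FPKM in treated SHR hearts and 47240 to 51005 FPKM in WKY hearts. Of the atrial markers, Nppa and Pam were abundant, and Myl4, Myl7, Sln and Bmp10 stood at 7.57 FPKM or less in every library. In bulk tissue, fewer cells of a type and less RNA per cell cannot be told apart.

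Treated SHR hearts differed from WKY hearts at 2852 genes, which is 24.3% of those tested. Of these, 1513 genes (12.9%) were higher and 1339 (11.4%) lower in treated SHR hearts, and 272 genes (2.32%) were called with a change of at least 2-fold, 158 higher (1.35%) and 114 lower (0.973%). Treated SHR and WKY values did not overlap at 4702 genes (40.1%). In SHR hearts 2561 genes (21.9%) differed from WKY, 1398 higher (11.9%) and 1163 lower (9.93%). Treated SHR and SHR hearts differed at 3924 genes (33.5%), 1888 higher (16.1%) and 2036 lower (17.4%). Genes called the same way in treated SHR and in SHR hearts against WKY are the ones the drug left unlike WKY, 417 higher (3.56% of tested genes) and 363 lower (3.1%). Genes called the same way in treated SHR hearts against WKY and against SHR hearts are the ones that set treated hearts apart from both other groups, 885 higher (7.55%) and 707 lower (6.03%). Of this second class, 723 higher and 591 lower genes were not called between SHR and WKY, and 109 higher and 86 lower genes lay on the opposite side of WKY in SHR hearts. A gene may be in both classes, as 53 higher and 30 lower genes were, and 264 higher and 299 lower genes were in neither. Each class uses a group of libraries in both of its contrasts (WKY in the first, treated SHR in the second), so the class sizes are descriptions and carry no test. The first class fell to 517 genes without WKY replicate 1 and to 487 genes without WKY replicate 2. Counts of gene lists below are read against the shares of all tested genes, 12.9% higher and 11.4% lower.

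Among named genes, some of the largest differences that the drug left in place were near all-or-none. In those, treated SHR and SHR hearts stood at a similar level, far from WKY hearts. Others differed between treated SHR and SHR hearts as well. Pbld1, Nr4a3, Mt1, Fcer2 and Wfdc1 were higher, and Efcab6 lower, in treated SHR than in SHR hearts. Ifit1, an interferon-induced protein that binds foreign RNA, stood at 8.61, 8.72 and 8.71 FPKM in treated SHR hearts, 10.9, 7.35 and 6.07 FPKM in SHR hearts, and 0, 0.0846 and 0.0874 FPKM in WKY hearts. The log2 difference of treated SHR from WKY hearts was 4.05 (SE 0.177, adjusted p = 8.31e-07). No overlap of treated SHR and WKY values was required of genes named for their class, so that separation is no finding. The values of both SHR groups overlapped. Eno1, the ubiquitous enolase of glycolysis, had 359, 371 and 400.4 FPKM in treated SHR hearts, 339, 352 and 376 FPKM in SHR hearts, and 44.6, 44.9 and 41.7 FPKM in WKY hearts (log2 difference of treated SHR from WKY 3.09, SE 0.0677, adjusted p = 1.64e-09). Eno3, the muscle enolase, ran the other way, with 81.3, 83 and 127 FPKM in treated SHR hearts against 194, 178 and 133 FPKM in WKY hearts (log2 -0.80, adjusted p = 0.0136). It was named after its values were seen, and it was not called when WKY replicate 1 or treated SHR replicate 2 was left out. Enolase 1 has near-identical processed copies in mammalian genomes, so the share of its fragments that came from this locus is uncertain.

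Other genes of this class also differed from WKY hearts. Creg1, a secreted glycoprotein of the lysosomal pathway, had 36.5, 32.6 and 28.2 FPKM in treated SHR hearts and 3.93, 3.75 and 5.46 FPKM in WKY hearts (log2 2.76, SE 0.135, adjusted p = 1.44e-06). RT1-A1, a class I histocompatibility heavy chain, had 79.8, 83.9 and 72.8 FPKM in treated SHR hearts and 13.1, 12.7 and 14.3 FPKM in WKY hearts (log2 2.52, adjusted p = 5.38e-07). Class I genes are polymorphic and near-identical to each other, so the assignment of fragments among them is uncertain. Defb1, a beta-defensin, had 8.51 to 14.7 FPKM in treated SHR hearts and 0.446 FPKM or less in WKY hearts, where 1 library is listed at 0. Ephx2, the soluble epoxide hydrolase that inactivates vasodilator epoxides of arachidonic acid, had 31.5, 28.2 and 26.9 FPKM in treated SHR hearts, 24.7, 26.7 and 26.4 FPKM in SHR hearts, and 9.74, 6.34 and 6.89 FPKM in WKY hearts (log2 1.87, SE 0.134, adjusted p = 1.6e-05). Treated SHR and SHR hearts overlapped for RT1-A1. Every treated SHR heart was above every SHR heart for Ephx2 and for Creg1 (23 to 26.2 FPKM in SHR hearts), but these differences were not called (adjusted p = 0.43 for Ephx2 and 0.0509 for Creg1).

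Genes that stayed low in treated hearts included several enzymes. Retsat, a retinol saturase of the endoplasmic reticulum, had 41.9, 55.5 and 50 FPKM in treated SHR hearts, 36.9, 31.1 and 36.8 FPKM in SHR hearts, and 286, 249.6 and 221 FPKM in WKY hearts (log2 difference of treated SHR from WKY -2.35, SE 0.121, adjusted p = 1.44e-06). Endog, the mitochondrial endonuclease G, had 3.38, 3.63 and 5.2 FPKM in treated SHR hearts and 39.8, 44.2 and 32.8 FPKM in WKY hearts (log2 -3.12, SE 0.16, adjusted p = 1.44e-06). Both genes were lower in all treated SHR libraries than in any WKY library, which was required of genes named for their class. SHR hearts had 4.36 to 5.53 FPKM of Endog. Serhl2, a hydrolase-like gene, had 2.01 to 3.2 FPKM in treated SHR hearts and 17.4 to 19.1 FPKM in WKY hearts (log2 -2.61, adjusted p = 9.84e-06). Rims1, a presynaptic active-zone scaffold, had at most 0.122 FPKM in treated SHR hearts and 3.22 to 3.98 FPKM in WKY hearts (log2 -2.75, adjusted p = 1.44e-06). Cidea, a lipid droplet protein, had 33.2, 34.6 and 33.5 FPKM in treated SHR hearts and 102, 78.6 and 76 FPKM in WKY hearts (log2 -1.31, SE 0.136, adjusted p = 0.000147). Efcab6, Ccdc78, Wbp1 and Srek1ip1 were also among the 10 largest falls that met the naming rule. Srek1ip1 is listed at 0 in treated SHR replicate 2, and its log2 difference was -2.88 with that library and -1.85 without it.

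**Figure D1:**
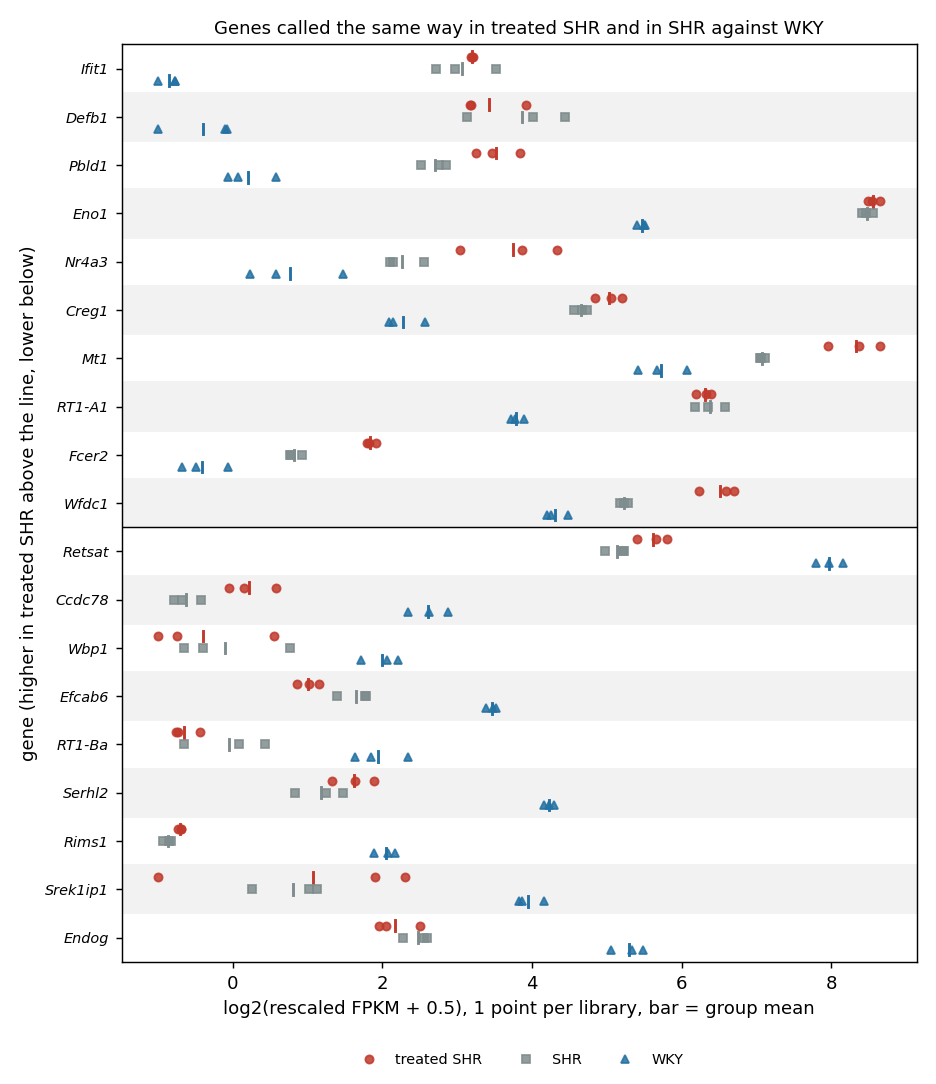
Levels of 19 named genes called the same way in treated SHR and in SHR hearts against WKY hearts, on a log2(rescaled FPKM + 0.5) axis with 1 point per library and a bar at the group mean. Treated SHR and SHR points lie on the same side of the WKY points for every gene, and for Mt1, Wfdc1, Fcer2, Nr4a3, Pbld1 and Efcab6 treated SHR lies farther from WKY than SHR does. The genes were picked with no overlap of treated SHR and WKY values.

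Fatty acid handling was the metabolic group most often left low. Of 39 tested genes of fatty acid uptake and oxidation, 13 (33.3%) were lower and 4 (10.3%) higher in treated SHR than in WKY hearts, and 12 of the 13 were also lower in SHR hearts. The median log2 difference of the list was -0.04, against -0.01 over all tested genes, so the falls were in part of the list. Cd36, the main fatty acid transporter of the cardiac myocyte, had 60.6, 46.1 and 24.7 FPKM in treated SHR hearts, 56.7, 55.4 and 57 FPKM in SHR hearts, and 145, 100.4 and 106 FPKM in WKY hearts (log2 -1.48, SE 0.258, adjusted p = 0.00264). A defect of Cd36 is a known feature of some SHR colonies. Cpt1b, which commits long-chain fatty acids to mitochondrial oxidation in muscle, had 138, 147 and 142 FPKM in treated SHR hearts, 177, 169 and 169 FPKM in SHR hearts, and 245, 232 and 227 FPKM in WKY hearts (log2 -0.72, SE 0.0592, adjusted p = 3.69e-05). Cpt1b was lower in treated SHR than in SHR hearts as well, by 0.27 on the log2 scale (adjusted p = 0.00579).

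Further members lay lower in treated SHR than in WKY hearts. Mlycd, which breaks down the Cpt1 inhibitor malonyl-CoA, differed by log2 -0.90 (adjusted p = 0.00139), and Hadhb, a subunit of the mitochondrial trifunctional protein, by -0.41 (adjusted p = 0.00227). Pdk4, a kinase that shuts off pyruvate dehydrogenase when fat is burned, was intermediate, with 263, 497 and 416 FPKM in treated SHR hearts, 260.3, 168 and 170.3 FPKM in SHR hearts, and 768, 668 and 635 FPKM in WKY hearts. Its difference from WKY was called (log2 -0.86, adjusted p = 0.0184) but not without WKY replicate 1 (adjusted p = 0.062). The members higher in treated SHR hearts were others. Ppargc1a, the coactivator that drives mitochondrial biogenesis, had 16.8, 20.9 and 24.1 FPKM in treated SHR hearts and 13.5, 11.6 and 11.2 FPKM in WKY hearts (log2 0.73, SE 0.129, adjusted p = 0.00278), and no treated value overlapped a WKY or SHR value. The count of lower members was 8 without WKY replicate 1 or without treated SHR replicate 1, and 7 without treated SHR replicate 3.

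Matrix genes stood close to WKY as a group, with exceptions on both sides. Of 47 genes of extracellular matrix and fibrosis, 40 were higher in SHR than in WKY hearts, with a median log2 difference of 1.07. In treated SHR hearts 11 (23.4%) were higher and 6 (12.8%) lower than in WKY hearts, with a median of 0.12. The count of 11 was 7 without WKY replicate 2, treated SHR replicate 2 or treated SHR replicate 3, and the count of 6 was 3 without WKY replicate 3 or treated SHR replicate 2. Col3a1, a fibrillar collagen of the interstitium, had 44.9, 46.9 and 72 FPKM in treated SHR hearts, 182, 176 and 165 FPKM in SHR hearts, and 42.9, 31.3 and 47.7 FPKM in WKY hearts, so treated SHR and WKY hearts overlapped. Its log2 difference from WKY was 0.41 (95% interval 0.01 to 0.81, adjusted p = 0.129). Col1a1, the other main fibrillar collagen, was called at 0.53 (adjusted p = 0.0437), with 14.5, 16.3 and 25.2 FPKM in treated SHR hearts and 13.3, 10.7 and 13.4 FPKM in WKY hearts. Col1a1 was not called without any single library other than treated SHR replicate 1, and its difference was 0.30 without treated SHR replicate 3 (adjusted p = 0.0821). The difference of Col3a1 was 0.20 without treated SHR replicate 3 and 0.24 without WKY replicate 2. Postn (periostin, made by activated fibroblasts) had 2.07, 2.26 and 4.07 FPKM in treated SHR hearts, 17.7, 17.3 and 21.2 FPKM in SHR hearts, and 1.68, 1.97 and 1.49 FPKM in WKY hearts, and its difference of 0.53 was called only without treated SHR replicate 1 (adjusted p = 0.0396).

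Some matrix genes stayed above the WKY level in treated hearts. Of the 11 list members called higher in treated SHR than in WKY hearts, 10 were higher in SHR hearts too. Spp1 (osteopontin, an injury-induced matricellular cytokine) had 5.25, 4.32 and 18.8 FPKM in treated SHR hearts, 26.1, 25.4 and 26.6 FPKM in SHR hearts, and 2, 1.69 and 2.16 FPKM in WKY hearts (log2 1.73, adjusted p = 0.0105; 1.11 without treated SHR replicate 3). Thbs4, a thrombospondin of stressed heart, had 2.23, 2.78 and 6.4 FPKM in treated SHR hearts, 44.5, 46.9 and 58 FPKM in SHR hearts, and 0.952, 1.29 and 1.08 FPKM in WKY hearts (log2 1.30, adjusted p = 0.00737). Both genes lay between SHR and WKY hearts, and both were named after their values were seen. Treated SHR replicate 3 had the highest level of its group for Spp1, Thbs4, Col1a1, Col3a1 and Postn. Tgfb1, the ligand that drives fibroblast activation, had 15, 17.1 and 17.8 FPKM in treated SHR hearts, 17.5, 13.7 and 15.5 FPKM in SHR hearts, and 10.6, 9.91 and 9.7 FPKM in WKY hearts (log2 0.69, SE 0.102, adjusted p = 0.00105). Serpinh1, the collagen chaperone, was higher in treated SHR than in WKY hearts (log2 0.64, adjusted p = 0.000942) and than in SHR hearts (log2 0.29, adjusted p = 0.0357).

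Osteoglycin and connective tissue growth factor separated treated hearts from both other groups, in opposite directions. Ogn, a small leucine-rich proteoglycan of the matrix, had 8.34, 8.65 and 12 FPKM in treated SHR hearts, 0.882, 0.384 and 0.465 FPKM in SHR hearts, and 1.48, 0.71 and 0.72 FPKM in WKY hearts. Its log2 difference was 2.81 from WKY (SE 0.234, adjusted p = 3.8e-05) and 3.25 from SHR hearts (adjusted p = 2.16e-05). Ctgf, a matricellular protein that acts with TGF-beta in fibrosis, had 59.9, 47.3 and 49.4 FPKM in treated SHR hearts, 250.5, 214 and 305 FPKM in SHR hearts, and 218, 165 and 193 FPKM in WKY hearts (log2 difference from WKY -1.87, SE 0.142, adjusted p = 2.24e-05). Every treated value of Ogn was above and every treated value of Ctgf below all values of both other groups. No overlap with WKY was required of genes named for their class. A called difference from SHR hearts was required too, so the separation from both groups is no finding.

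Genes of cardiac load and fetal growth fell below the WKY level. Of 15 tested fetal and hypertrophy-associated genes, 8 (53.3%) were lower and 0 higher in treated SHR than in WKY hearts, with a median log2 difference of -0.50. At an unadjusted limma p under 0.05, 9 were lower and 2 higher, and 1 was called higher without SHR replicate 3 or treated SHR replicate 1. All 8 were also lower than in SHR hearts, where 8 of the list were above WKY and 1 below. Nppa, the atrial natriuretic peptide that stretched myocytes secrete, had 232, 302 and 484 FPKM in treated SHR hearts, 3542, 3300.0 and 6023 FPKM in SHR hearts, and 1589, 2022 and 2005 FPKM in WKY hearts (log2 difference from WKY -2.52, SE 0.268, adjusted p = 0.000161). Nppb, the B-type peptide, had 286, 161 and 243 FPKM in treated SHR hearts, 656, 651 and 786 FPKM in SHR hearts, and 539.6, 400.1 and 486 FPKM in WKY hearts (log2 -1.07, SE 0.185, adjusted p = 0.00252). For both peptides the treated values lay below every WKY value, which the rule for class genes required of Nppa. Nppa is also an atrial marker, and Myl4, the atrial light chain, had 5.33, 3.8 and 4.9 FPKM in treated SHR hearts and 3.15, 4.24 and 2.66 FPKM in WKY hearts, which was not called (adjusted p = 0.11). The part of atrial tissue in the Nppa result was not tested.

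Single genes of the myocyte cytoskeleton gave unlike results. Enah, an actin polymerase of the intercalated disc, had 28.3, 27.8 and 32.6 FPKM in treated SHR hearts and 52.8, 42.5 and 48.4 FPKM in WKY hearts (log2 -0.69, adjusted p = 0.00148). Ankrd2, a stretch-responsive ankyrin repeat protein named after its values were seen, had 0.561, 0.655 and 0.637 FPKM in treated SHR hearts and 1.93, 1.61 and 2.31 FPKM in WKY hearts (log2 -1.12, adjusted p = 0.00345). Acta1, skeletal actin re-expressed in hypertrophy, overlapped between treated SHR and WKY hearts, with 670.4, 556 and 1007 FPKM in treated SHR hearts, 2487, 2283 and 3067 FPKM in SHR hearts, and 712, 540.0 and 646 FPKM in WKY hearts. Its log2 difference from WKY was 0.20 (95% interval -0.23 to 0.63, adjusted p = 0.498).

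Both cardiac myosin heavy chains differed from WKY in opposite directions. Myh7, the slow beta chain, had 1424, 1327 and 1498 FPKM in treated SHR hearts, 2204, 2378 and 2433 FPKM in SHR hearts, and 3107, 3234 and 2826 FPKM in WKY hearts (log2 -1.11, SE 0.0772, adjusted p = 1.3e-05). Myh6, the fast alpha chain that dominates the healthy adult rat ventricle, had 2256, 2257 and 2098 FPKM in treated SHR hearts, 1407, 1198 and 826 FPKM in SHR hearts, and 1234, 1020.0 and 1404 FPKM in WKY hearts (log2 0.86, SE 0.172, adjusted p = 0.00522). Every treated heart had more Myh6 than Myh7, and every WKY heart more Myh7 than Myh6, on the FPKM scale, which is per length. Of 24 tested sarcomere genes, 7 (29.2%) were higher and 9 (37.5%) lower in treated SHR than in WKY hearts. The higher ones included the ventricular light chain Myl2 (log2 0.56, adjusted p = 0.000665). Myl3, the essential light chain, was called at 0.45, but its difference was 0.17 with quantile normalization (adjusted p = 0.0986).

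The lower sarcomere genes included large structural proteins. Ttn, the titin spring, had 19.1, 16.9 and 13.5 FPKM in treated SHR hearts, 41, 49.7 and 44 FPKM in SHR hearts, and 37.1, 39.5 and 43.4 FPKM in WKY hearts (log2 -1.26, SE 0.122, adjusted p = 9.49e-05). Flnc, a filamin of the Z-disc, had 63.6, 63.3 and 64.9 FPKM in treated SHR hearts and 122, 106 and 114 FPKM in WKY hearts (log2 -0.83, adjusted p = 0.000191). No treated value of Ttn or Flnc overlapped a WKY or SHR value. Across the table, the share of genes called higher was smaller in bins of longer genes, and the share called lower differed little between bins. When tested genes were split into 5 equal bins by genomic span, in the longest bin 8.04% were higher and 12.9% lower in treated SHR hearts (median log2 -0.05), and in the shortest bin 17.8% were higher and 11% lower (median log2 0.03). The part of gene or transcript length in these results was not tested gene by gene; with the trend on span removed from each library, 2881 genes were called.

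**Figure D2:**
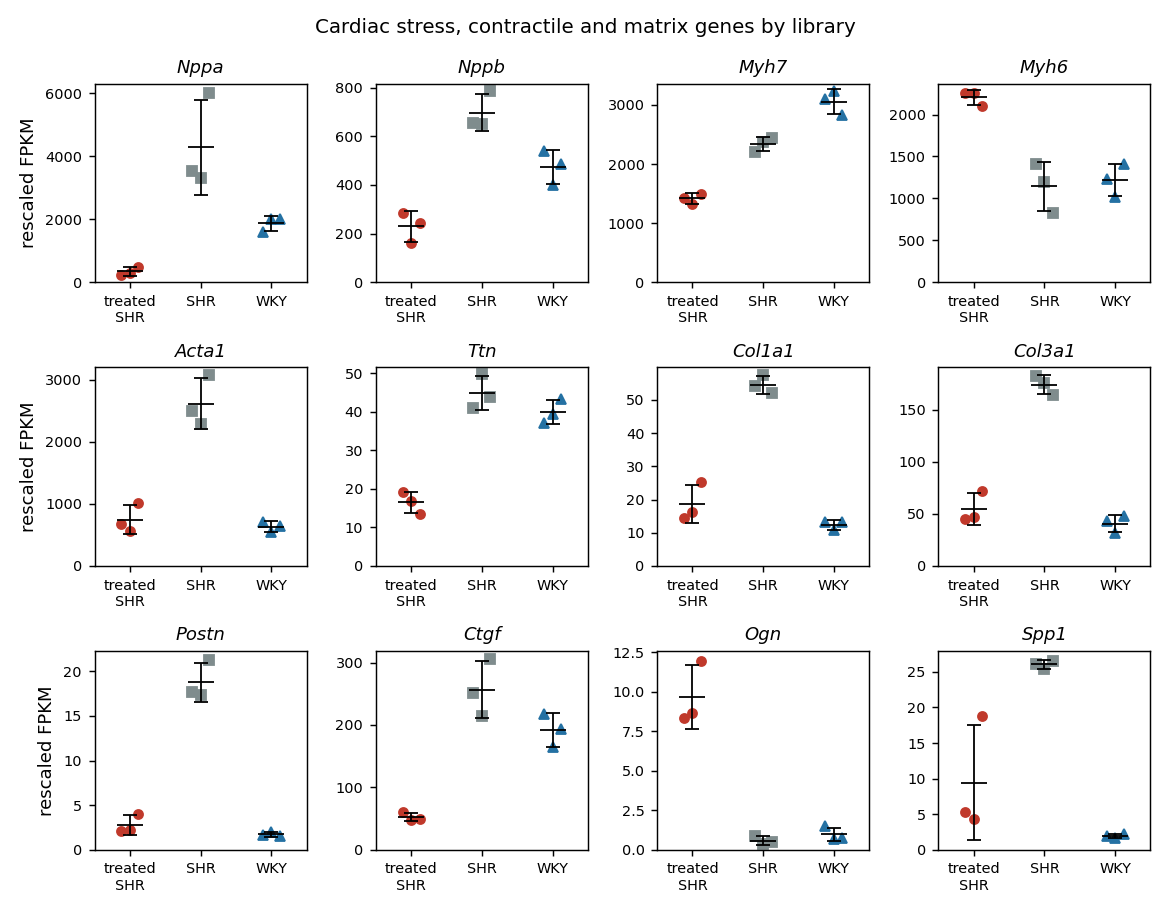
Rescaled FPKM of 12 cardiac stress, contractile and matrix genes, with 1 point per library, the group mean as a bar and the SD (n = 3) as whiskers, each axis starting at 0. Treated SHR hearts lie below both other groups for Nppa, Nppb, Myh7, Ttn and Ctgf, above both for Myh6 and Ogn, and within or near the WKY range for Acta1, Col1a1, Col3a1 and Postn, while Spp1 lies between SHR and WKY hearts.

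**Figure D3:**
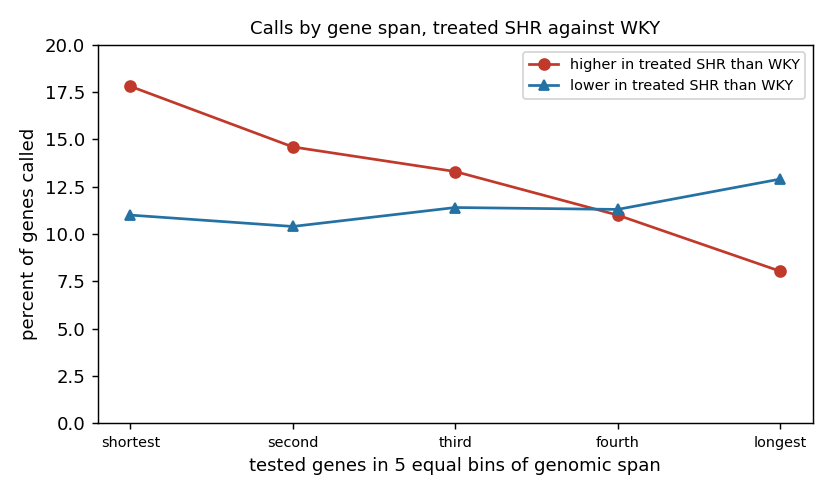
Percent of tested genes called higher and lower in treated SHR than in WKY hearts, in 5 equal bins of the genomic span of the gene. The share called higher is 17.8% in the shortest and 8.04% in the longest bin, and the share called lower is 11% and 12.9%.

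Respiratory chain genes were called in both directions, and most of those called also differed from SHR hearts. Of 61 tested nuclear genes of oxidative phosphorylation, 20 (32.8%) were higher and 12 (19.7%) lower in treated SHR than in WKY hearts. Of these, 18 higher and 7 lower genes also differed the same way from SHR hearts. Over all tested genes, that held for 885 of 1513 higher and 707 of 1339 lower genes. Of the 61 genes, 1 was higher and 17 were lower in SHR than in WKY hearts. Cox6a2, the muscle subunit of cytochrome c oxidase, had 7124, 6229 and 5746 FPKM in treated SHR hearts, 2779, 2607 and 2788 FPKM in SHR hearts, and 3191, 3023 and 2972 FPKM in WKY hearts (log2 1.05, SE 0.0842, adjusted p = 2.96e-05). Uqcr11 and Uqcrq, small subunits of complex III, differed from WKY by log2 0.81 (adjusted p = 1.72e-05) and 0.87 (adjusted p = 4.35e-05). Ndufa12, of complex I, had 325, 271 and 263 FPKM in treated SHR hearts, 41.4, 62.6 and 63.1 FPKM in SHR hearts, and 78.8, 47.2 and 79 FPKM in WKY hearts (log2 2.09, adjusted p = 0.000109); copies of it elsewhere in the genome would make this level uncertain. Ndufa10, another complex I subunit, was lower, with 55.1, 53.2 and 55.8 FPKM in treated SHR hearts, 68.8, 67.4 and 62.6 FPKM in SHR hearts, and 87.2, 91.3 and 88.1 FPKM in WKY hearts (log2 -0.69, adjusted p = 5.46e-05). Subunits of complex I thus lay on both sides of WKY.

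Other energy genes were called in both directions as well. Of 18 tested citrate cycle genes, 5 (27.8%) were higher and 4 (22.2%) lower in treated SHR than in WKY hearts. Idh3g, a subunit of isocitrate dehydrogenase, had 454, 444 and 411 FPKM in treated SHR hearts, 279, 286 and 262 FPKM in SHR hearts, and 342, 312 and 327 FPKM in WKY hearts (log2 0.41, adjusted p = 0.00162). The count of 5 was 3 without any 1 of WKY replicates 2 and 3 and treated SHR replicates 1 and 2, and the count of 4 was 1 or 2 without SHR replicate 2 or any single treated SHR or WKY library. Of 29 tested genes of glucose uptake and glycolysis, 6 (20.7%) were higher and 3 (10.3%) lower. In SHR hearts 5 of the 6 were higher as well. Hk2, the insulin-regulated hexokinase, had 25.7, 23.6 and 20.8 FPKM in treated SHR hearts and 11.4, 15.5 and 14.4 FPKM in WKY hearts (log2 0.75, adjusted p = 0.00191), and Aldoa, an aldolase, had 522, 509 and 552 FPKM in treated SHR hearts and 854, 789 and 725 FPKM in WKY hearts (log2 -0.58, adjusted p = 0.000528). Bdh1, the mitochondrial enzyme that oxidizes the ketone body beta-hydroxybutyrate, stayed high in both SHR groups (log2 difference of treated SHR from WKY 0.70, adjusted p = 0.00278; SHR from WKY 0.81, adjusted p = 0.00124).

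Calcium handling and conduction differed at single genes. Of 21 tested calcium-handling genes, 4 (19%) were higher and 3 (14.3%) lower in treated SHR than in WKY hearts. Atp2a2, the calcium pump of the sarcoplasmic reticulum, had 1809, 1864 and 1773 FPKM in treated SHR hearts, 1841, 1956 and 1703 FPKM in SHR hearts, and 2263, 2349 and 2281 FPKM in WKY hearts (log2 -0.34, SE 0.0673, adjusted p = 0.00513). Both SHR groups overlapped below WKY. Trdn, triadin, which anchors calsequestrin to the ryanodine receptor, lay on both sides of WKY, with 53.6, 54.2 and 52.1 FPKM in treated SHR hearts, 24.8, 19.8 and 18.8 FPKM in SHR hearts, and 35.3, 32.3 and 32.8 FPKM in WKY hearts (log2 difference from WKY 0.67, adjusted p = 0.000967). The count of 4 was 1 without WKY replicate 1, WKY replicate 3 or treated SHR replicate 1, and 2 without WKY replicate 2, treated SHR replicate 2 or treated SHR replicate 3. Of 26 tested ion channel genes, 4 (15.4%) were higher and 2 (7.69%) lower, against 12.9% and 11.4% of all tested genes. The 2 became 0 without WKY replicate 2 and 1 without SHR replicate 2 or treated SHR replicate 3. Fxyd1, phospholemman, the regulator of the sodium pump, had 319.5, 336 and 329.7 FPKM in treated SHR hearts, 204, 202 and 199 FPKM in SHR hearts, and 222, 208 and 211 FPKM in WKY hearts (log2 0.62, SE 0.0561, adjusted p = 6.1e-05).

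The metallothionein genes Mt1 and Mt2A were higher than in WKY hearts. Mt1, a metallothionein that binds zinc and copper, had 332, 402 and 247 FPKM in treated SHR hearts, 133, 132 and 138 FPKM in SHR hearts, and 66.6, 50.5 and 42.2 FPKM in WKY hearts. Its log2 difference was 2.61 from WKY (SE 0.179, adjusted p = 1.19e-05) and 1.25 from SHR hearts (adjusted p = 0.000552), so no group overlapped another. Mt2A, the neighbouring metallothionein gene, overlapped between treated SHR and SHR hearts, with 75.8, 91.9 and 52.1 FPKM in treated SHR hearts, 80.7, 86.4 and 122 FPKM in SHR hearts, and 31.3, 20.7 and 23.1 FPKM in WKY hearts (log2 difference of treated SHR from WKY 1.51, adjusted p = 0.000967). Of 8 tested genes of the metallothionein and zinc list, 2 (25%) were higher and 1 (12.5%) lower (2 without WKY replicate 3). The lower one was Slc30a1, a zinc exporter (log2 -0.57, adjusted p = 0.00309). The metallothioneins Mt3 (log2 -1.10, adjusted p = 0.244) and Mt1m (log2 -0.31, adjusted p = 0.723) were not called and are listed at 0 in several libraries, and the median of the list was -0.12. Metallothionein genes are induced by zinc through metal response elements, so both promoters are shown, from RefSeq (build GRCr8), 250 bases before to 50 after the start site. Capitals mark the element core, TGCACNC or TGCGCNC on either strand, with 6 matches for Mt1 at chr19:10832926-10833225 and 4 for Mt2A at chr19:10838659-10838958, both on the minus strand and written 5′ to 3′. Such a core is in 24.2% of 33469 promoter windows. It is in 5 of the 6 list members with a window, which include Slc30a1 and the genes Mt3 and Mtf1 that were not called, and a match is a description, not a site in use.
Mt1: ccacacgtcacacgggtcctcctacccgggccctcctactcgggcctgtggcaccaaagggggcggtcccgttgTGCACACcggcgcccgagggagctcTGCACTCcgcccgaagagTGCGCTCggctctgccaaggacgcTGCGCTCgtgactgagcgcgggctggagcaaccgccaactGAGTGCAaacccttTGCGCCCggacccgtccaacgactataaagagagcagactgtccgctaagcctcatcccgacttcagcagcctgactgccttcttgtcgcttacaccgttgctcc
Mt2A: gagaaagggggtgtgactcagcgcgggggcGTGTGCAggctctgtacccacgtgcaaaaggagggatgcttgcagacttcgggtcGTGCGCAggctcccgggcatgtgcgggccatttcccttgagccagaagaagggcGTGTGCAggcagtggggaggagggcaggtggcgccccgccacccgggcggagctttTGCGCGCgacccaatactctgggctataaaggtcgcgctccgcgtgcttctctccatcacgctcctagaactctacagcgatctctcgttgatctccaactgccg

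Antioxidant genes were called in equal numbers each way. Of 36 tested antioxidant and glutathione genes, 8 (22.2%) were higher and 8 (22.2%) lower in treated SHR than in WKY hearts. Hmox1, heme oxygenase 1, had 125, 169.7 and 116 FPKM in treated SHR hearts, 66.3, 56.9 and 52.8 FPKM in SHR hearts, and 40.9, 35.8 and 52.2 FPKM in WKY hearts (log2 1.66, SE 0.162, adjusted p = 9.89e-05). Srxn1, sulfiredoxin, which reactivates peroxiredoxins, differed by log2 1.11 (adjusted p = 0.000212), and Sod3, the extracellular superoxide dismutase, by 0.73 (adjusted p = 0.000389). Catalase (Cat) was lower, with 70.6, 73.1 and 63.7 FPKM in treated SHR hearts, 85.4, 90.1 and 79 FPKM in SHR hearts, and 136, 124 and 111 FPKM in WKY hearts (log2 -0.83, adjusted p = 0.000174). Of 5 tested mu-class glutathione S-transferases, 1 (20%) was higher and 1 (20%) lower. Gstm1, the higher one, had 26.7, 28.3 and 25.2 FPKM in treated SHR hearts, 11.4, 11.9 and 10.2 FPKM in SHR hearts, and 9.8, 8.55 and 9.92 FPKM in WKY hearts (log2 1.46, SE 0.0913, adjusted p = 5.1e-06). Gstm3, the lower one, had 6.96, 4.9 and 6.03 FPKM in treated SHR hearts, 10.8, 10.9 and 8.68 FPKM in SHR hearts, and 8.63, 10 and 9.79 FPKM in WKY hearts (log2 -0.64, adjusted p = 0.00664). Gstm2, the transferase named in the title of the series, had 306, 321 and 252 FPKM in treated SHR hearts and 280.5, 278 and 261 FPKM in WKY hearts. These groups overlapped, and the log2 difference was 0.09 (95% interval -0.12 to 0.31, adjusted p = 0.532), while SHR hearts had 114, 139 and 125 FPKM. Genes of this family are similar in sequence, so fragments may be shared among them.

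Genes of the unfolded protein response, which raises chaperones and folding enzymes of the endoplasmic reticulum, were higher as a group. Of 27 tested members, 13 (48.1%) were higher and 0 lower in treated SHR than in WKY hearts, with a median log2 difference of 0.22, and 20 of the 27 differences were positive. At an unadjusted limma p under 0.05, 15 were higher and 0 lower. Of the 13, 6 were also higher in SHR than in WKY hearts and 8 were higher in treated SHR than in SHR hearts. Over all 27, 10 were higher and 0 lower in SHR than in WKY hearts (median log2 difference 0.17). Against SHR hearts, 9 of the 27 were higher and 2 lower in treated SHR hearts, with a median of -0.03. Calr, the calcium-binding chaperone calreticulin, had 158, 167 and 178 FPKM in treated SHR hearts, 138, 138 and 143 FPKM in SHR hearts, and 111, 102 and 111 FPKM in WKY hearts (log2 0.63, SE 0.0667, adjusted p = 0.00016). Manf, a secreted factor of the stressed reticulum, had 43.9, 39.7 and 46.5 FPKM in treated SHR hearts, 31.6, 31.6 and 36.9 FPKM in SHR hearts, and 24.9, 26.4 and 24 FPKM in WKY hearts (log2 0.77, adjusted p = 0.000212). For both genes the 3 groups did not overlap. Dnajc3, a co-chaperone, differed by log2 0.63 (adjusted p = 0.00346), and Atf4, a transcription factor of the stress response, by 0.65 (adjusted p = 0.00106). The count of 13 was 7 without WKY replicate 2 and 8 without treated SHR replicate 1.

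A binding element of this response, the ER stress element (CCAAT, any 9 bases, CCACG), was searched on both strands of the same RefSeq windows. It is in 22 of the 33469 windows (0.0657%). Of the 27 tested members, 22 have a window and 7 hold the element. Of those 7, 6 were called higher in treated SHR than in WKY hearts (Calr, Dnajc3, Hsp90b1, Hspa5, Xbp1 and Canx), and Creld2 was not (log2 0.48, adjusted p = 0.0642). Of the 15 members with a window and no element, 6 were called higher. Hspa5 (BiP, the master chaperone of the reticulum) had 180.2, 178 and 212 FPKM in treated SHR hearts and 159, 149 and 151 FPKM in WKY hearts (log2 0.30, adjusted p = 0.0169, and 0.0615 without WKY replicate 2). Hsp90b1 (the reticulum's Hsp90) had 76.8, 89.1 and 93.1 FPKM in treated SHR hearts and 67.5, 62.8 and 66.1 FPKM in WKY hearts (log2 0.39, adjusted p = 0.00549). Xbp1 was not called without WKY replicate 2, treated SHR replicate 1 or treated SHR replicate 2, and Canx without SHR replicate 3 or any single treated SHR or WKY library. The motif search and these genes were chosen after the list's values were known, and no cause is read from it. The windows of 4 of them are shown with the element in capitals, because these genes carry the count: Calr at chr19:40213117-40213416 on the plus strand, Hspa5 at chr3:38452766-38453065 on the plus strand, Hsp90b1 at chr7:23012244-23012543 on the minus strand with 2 elements, and Dnajc3 at chr15:102432417-102432716 on the plus strand (GRCr8, 5′ to 3′).
Calr: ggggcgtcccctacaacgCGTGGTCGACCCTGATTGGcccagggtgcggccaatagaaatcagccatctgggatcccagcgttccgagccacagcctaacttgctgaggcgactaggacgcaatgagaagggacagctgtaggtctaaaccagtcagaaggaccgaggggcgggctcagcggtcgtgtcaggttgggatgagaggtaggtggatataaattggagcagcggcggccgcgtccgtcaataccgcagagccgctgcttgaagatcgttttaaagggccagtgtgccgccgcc
Hspa5: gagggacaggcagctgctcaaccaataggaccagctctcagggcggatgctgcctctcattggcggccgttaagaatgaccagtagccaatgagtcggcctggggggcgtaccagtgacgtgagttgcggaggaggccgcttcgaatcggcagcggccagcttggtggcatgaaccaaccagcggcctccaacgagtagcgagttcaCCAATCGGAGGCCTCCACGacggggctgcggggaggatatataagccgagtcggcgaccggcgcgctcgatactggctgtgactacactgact
Hsp90b1: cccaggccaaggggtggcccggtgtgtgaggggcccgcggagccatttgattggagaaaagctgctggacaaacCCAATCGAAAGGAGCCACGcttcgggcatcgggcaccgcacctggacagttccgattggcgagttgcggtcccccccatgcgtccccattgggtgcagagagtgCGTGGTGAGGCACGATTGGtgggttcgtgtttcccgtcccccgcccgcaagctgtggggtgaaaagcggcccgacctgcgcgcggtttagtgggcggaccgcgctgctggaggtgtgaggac
Dnajc3: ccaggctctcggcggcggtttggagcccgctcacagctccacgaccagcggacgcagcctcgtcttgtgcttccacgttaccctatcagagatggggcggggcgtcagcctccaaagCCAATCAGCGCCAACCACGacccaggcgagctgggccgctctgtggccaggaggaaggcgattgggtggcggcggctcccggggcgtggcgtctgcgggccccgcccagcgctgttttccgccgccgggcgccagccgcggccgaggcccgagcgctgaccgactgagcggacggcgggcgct

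The mitochondrial chaperonin pair was high in treated hearts alone. Hspe1, the co-chaperonin lid, had 592, 514 and 502 FPKM in treated SHR hearts, 279, 276 and 291 FPKM in SHR hearts, and 286, 257 and 301 FPKM in WKY hearts (log2 0.93, SE 0.0812, adjusted p = 4.68e-05). Hspd1, the chaperonin barrel, had 265, 253 and 274 FPKM in treated SHR hearts, 207, 188 and 201 FPKM in SHR hearts, and 194, 196 and 198 FPKM in WKY hearts (log2 0.43, SE 0.061, adjusted p = 0.000839). Treated values of both lay above all others, while SHR and WKY values overlapped. Both genes are read from a shared head-to-head promoter, and 211 bases of their windows are the same stretch. Among 20 tested heat shock chaperones, 6 (30%) were higher and 2 (10%) lower in treated SHR than in WKY hearts. The 2 became 1 without WKY replicate 1, treated SHR replicate 1 or treated SHR replicate 2. The Hspe1 window, at chr9:64084077-64084376 on the plus strand (GRCr8, 5′ to 3′), is shown because it holds 2 overlapping heat shock elements (TTC, GAA and TTC, or GAA, TTC and GAA, each apart by any 2 bases), in capitals. The Hspd1 window holds the same stretch of DNA, read on the other strand. Such an element is in 0.798% of windows and in 6 of the 17 listed chaperones with a window, where the shared stretch counts for both genes. These are 3 of the 6 members that were higher (Hspd1, Hspe1 and Dnaja1), 0 of the 2 that were lower and 3 of the 9 that were not called.
Hspe1: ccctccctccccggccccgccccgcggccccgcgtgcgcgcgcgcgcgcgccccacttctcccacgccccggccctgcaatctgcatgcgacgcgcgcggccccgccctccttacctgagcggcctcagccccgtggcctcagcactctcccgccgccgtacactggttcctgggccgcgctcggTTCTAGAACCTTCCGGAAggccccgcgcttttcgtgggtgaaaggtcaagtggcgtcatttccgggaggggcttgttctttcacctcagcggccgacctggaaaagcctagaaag

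Genes of RNA processing and protein turnover were called mostly against both other groups. Of 54 tested spliceosome, SR and hnRNP genes, 14 (25.9%) were higher and 8 (14.8%) lower in treated SHR than in WKY hearts, and 13 higher and 4 lower genes also differed from SHR hearts. Hnrnpa2b1, an RNA-binding protein of splicing and transport, had 357, 370.5 and 381 FPKM in treated SHR hearts, 214, 193 and 196 FPKM in SHR hearts, and 205, 222 and 223 FPKM in WKY hearts (log2 0.77, SE 0.0653, adjusted p = 4.02e-05). Rbm24, a muscle splicing factor, differed by log2 0.75 (adjusted p = 0.00107). The count of 8 was 3 to 5 without any WKY replicate or treated SHR replicate 2. Hnrnpab and Rbm39 had the largest rises of this kind among named genes, but Hnrnpab was uneven, with 45.4, 11.4 and 7.84 FPKM in treated SHR hearts, 0.956, 6.46 and 0.75 FPKM in SHR hearts, and 0.495, 1.31 and 0.742 FPKM in WKY hearts. Rbm39, a splicing coactivator, was low in all groups, with 2.71, 4.11 and 1.67 FPKM in treated SHR hearts and at most 0.203 FPKM in WKY hearts. Of 35 tested proteasome genes, 9 (25.7%) were higher and 3 (8.57%) lower. Psmb7, a catalytic subunit, had 210.2, 188 and 198 FPKM in treated SHR hearts and 104, 99.3 and 116 FPKM in WKY hearts (log2 0.90, adjusted p = 4.06e-05).

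Ribosomal protein genes split as well. Of 62 tested mitochondrial ribosomal proteins, 17 (27.4%) were higher and 6 (9.68%) lower in treated SHR than in WKY hearts, led by Mrps17 (log2 1.08, adjusted p = 6.26e-05). The 17 became 10 without WKY replicate 2, and the 6 became 2 or 3 without WKY replicate 1, treated SHR replicate 2 or treated SHR replicate 3. Of 68 cytosolic ribosomal proteins, 14 (20.6%) were higher and 15 (22.1%) lower, and the 15 became 9 without WKY replicate 1. Rps26 had 886, 842 and 767 FPKM in treated SHR hearts and 446, 378 and 393 FPKM in WKY hearts (log2 1.03, adjusted p = 2.41e-05). Rps25 had 149, 126 and 102 FPKM in treated SHR hearts and 344, 315 and 290.5 FPKM in WKY hearts (log2 -1.34, adjusted p = 0.000105). Ribosomal protein genes have many processed copies, so both values are uncertain. Rpl8 and Rps9, which every cell uses, are listed at 0 in all libraries, and a value of 0 in this table is therefore not read as absence.

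Part of the immune gene pattern of SHR hearts was also seen in treated SHR hearts. Of 9 macrophage markers, all 9 were higher in SHR than in WKY hearts. In treated SHR hearts 5 (55.6%) were still higher than in WKY hearts, with a median log2 difference of 0.33. The summed level of the 9 was 225 to 276 FPKM in treated SHR hearts, 424 to 497 FPKM in SHR hearts, and 158 to 179 FPKM in WKY hearts. Lyz2, lysozyme, had 121, 141 and 143 FPKM in treated SHR hearts, 235, 264 and 290.4 FPKM in SHR hearts, and 86.8, 76 and 88.1 FPKM in WKY hearts (log2 0.69, SE 0.0977, adjusted p = 0.000858). Csf1r, Adgre1, Mrc1 and Cd163 were not called between treated SHR and WKY hearts. The count of 5 was 3 without WKY replicate 1, WKY replicate 2, treated SHR replicate 2 or treated SHR replicate 3. Of 20 tested complement genes, 7 (35%) were higher and 2 (10%) lower, and 6 of the 7 were higher in SHR hearts too. C1qa and C1qb, subunits of the classical initiator that are also macrophage markers, differed by log2 0.64 (adjusted p = 0.004) and 0.53 (adjusted p = 0.00215). The part of macrophages in the complement and cytokine results was not tested.

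Cytokines, interferon-induced genes and class II antigens added smaller counts. Of 30 tested inflammatory genes, 7 (23.3%) were higher and 3 (10%) lower in treated SHR than in WKY hearts. In SHR hearts 6 of the 7 were higher. Cxcl16, a transmembrane chemokine, had 7.35, 12.1 and 12.7 FPKM in treated SHR hearts, 10.1, 11.9 and 12.3 FPKM in SHR hearts, and 5.24, 4.91 and 4.39 FPKM in WKY hearts (log2 1.03, adjusted p = 0.00229). Ccl3, a macrophage chemokine, had 0.748, 0.663 and 0.301 FPKM in treated SHR hearts and is listed at 0 in the 3 WKY libraries. The 7 became 3 or 4 without WKY replicate 1, WKY replicate 2 or treated SHR replicate 2, and the 3 became 1 without WKY replicate 3 or treated SHR replicate 2. Of 39 tested interferon-induced genes, 3 (7.69%) were higher and 3 (7.69%) lower, below the shares of all tested genes (12.9% and 11.4%), and 6 were higher without WKY replicate 3. The 3 higher and 3 lower genes were also called in SHR hearts, with Ifit1 on one side and Ifi27 (log2 -1.21, adjusted p = 0.000199) on the other. Among 17 tested histocompatibility genes, 3 (17.6%) were higher and 5 (29.4%) lower. RT1-Ba and RT1-Bb, which encode both chains of a class II antigen, were lower than in WKY hearts (log2 -2.59, adjusted p = 0.000158, and -1.82, adjusted p = 7.41e-05). RT1 haplotypes can differ between strains, so how well fragments of each strain were counted is uncertain. Il2rb, a receptor chain of interleukins 2 and 15, had 6.99, 7.7 and 6.97 FPKM in treated SHR hearts, 4.89, 4.5 and 4.08 FPKM in SHR hearts, and 1.24, 1.26 and 1.62 FPKM in WKY hearts (log2 2.05, adjusted p = 2.4e-06). Of the 5 T cell markers, Cd3d, Cd3e, Cd3g and Cd8a were at or under 0.867 FPKM in every library. Cd4, a coreceptor that rat macrophages also carry, had 3.63, 5.2 and 5.13 FPKM in treated SHR hearts, 8.67, 8.92 and 9.77 FPKM in SHR hearts, and 3.43, 3.52 and 3.83 FPKM in WKY hearts (log2 0.32, adjusted p = 0.0979, and 0.012 without treated SHR replicate 1). The 5 summed to 4.94 to 6.41 FPKM in treated SHR hearts, 9.74 to 10.9 FPKM in SHR hearts, and 4.41 to 4.84 FPKM in WKY hearts, and their part in the Il2rb result was not tested.

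Blood-borne transcripts differed too and were uneven in treated hearts. Of 7 tested erythroid markers, 2 (28.6%) were higher and 1 (14.3%) lower in treated SHR than in WKY hearts. The 8 in the table summed to 858 to 2260 FPKM in treated SHR hearts, 174 to 343 FPKM in SHR hearts, and 300.3 to 584 FPKM in WKY hearts, highest in treated SHR replicate 1. Hba1, an alpha-globin, had 1497, 612 and 620.5 FPKM in treated SHR hearts and 167, 361 and 247 FPKM in WKY hearts (log2 1.75, SE 0.373, adjusted p = 0.00744). Hba-a1, another alpha-globin gene with a near-identical sequence, is listed at 0 in all 3 treated libraries and had 1.21, 4.17 and 5.46 FPKM in WKY hearts, so the split of fragments among these genes is uncertain. Hbb, the beta-globin, overlapped, with 262, 84.3 and 121 FPKM in treated SHR hearts and 70.4, 123 and 92.2 FPKM in WKY hearts (log2 0.58, adjusted p = 0.297; 0.12 without treated SHR replicate 1). The neutrophil protein S100a8 had 6.62, 9.1 and 5.54 FPKM in treated SHR hearts, 1.61, 2.82 and 1.47 FPKM in SHR hearts, and 2.71, 2.87 and 2.95 FPKM in WKY hearts (log2 1.16, adjusted p = 0.00317). The 5 neutrophil markers summed to 13.6 to 24.1 FPKM in treated SHR hearts and 6.98 to 9.88 FPKM in WKY hearts, with Mpo at 0 in every library and Elane at 0 in every treated library. The part of blood in the rises of Hmox1, Il2rb and other genes above was not tested.

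Few genes of the drug's own pathway could be tested. Of 20 renin-angiotensin-aldosterone and kinin genes in the table, 11 passed the filter, 2 (18.2%) were lower and 0 higher in treated SHR than in WKY hearts, against 11.4% and 12.9% of all tested genes. At an unadjusted limma p under 0.05, 2 were lower and 2 higher, and 1 was called higher without WKY replicate 3. Agtr1a, the receptor the drug class blocks, had 0.705, 1.36 and 0.616 FPKM in treated SHR hearts, 0.653, 1.21 and 0.582 FPKM in SHR hearts, and 0.251, 1.18 and 1.23 FPKM in WKY hearts. Its groups overlapped, and the log2 difference from WKY was 0.07 (95% interval -0.67 to 0.80, adjusted p = 0.905). Ace, the angiotensin-converting enzyme, had 2.3, 2.4 and 2.67 FPKM in treated SHR hearts, 5.15, 4.63 and 5.16 FPKM in SHR hearts, and 3.41, 2.41 and 3.75 FPKM in WKY hearts (log2 -0.30, 95% interval -0.62 to 0.01, adjusted p = 0.149), and it was called at -0.46 without WKY replicate 2 (adjusted p = 0.0287). The lower members were Hsd11b1, which regenerates active glucocorticoid (adjusted p = 0.0172), and the prorenin receptor Atp6ap2 (adjusted p = 0.0405), and neither was called without WKY replicate 1 or treated SHR replicate 1. Agt, the angiotensin precursor, was at or under 0.179 FPKM and was not tested. Of 18 tested genes of natriuretic peptide and nitric oxide signalling, 5 (27.8%) were lower and 0 higher (7 and 0 at an unadjusted limma p under 0.05). Npr3, the clearance receptor of natriuretic peptides, had 6.45, 5.02 and 5.71 FPKM in treated SHR hearts, 12.1, 9.43 and 14.1 FPKM in SHR hearts, and 10, 14.1 and 13.8 FPKM in WKY hearts (log2 -1.07, SE 0.164, adjusted p = 0.00129). The count of 5 was 3 without any single WKY replicate and 2 without treated SHR replicate 3.

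Growth factor, clock and other cell markers complete the comparison. Igfbp7 and Igfbp5, which bind insulin-like growth factors, stayed high in both SHR groups, with Igfbp5 at 30.7, 22.6 and 34.6 FPKM in treated SHR hearts, 39.6, 37.9 and 44.5 FPKM in SHR hearts, and 11, 15.8 and 15.8 FPKM in WKY hearts (log2 1.02, adjusted p = 0.00185). Igf2r, the receptor that clears one of those factors, was lower in treated hearts alone (log2 -0.60, adjusted p = 0.00123). Usp2, a deubiquitinase whose level follows the clock, had 47.5, 47.7 and 46.1 FPKM in treated SHR hearts, 18.4, 18.1 and 17 FPKM in SHR hearts, and 26.9, 28 and 28.7 FPKM in WKY hearts (log2 0.75, SE 0.0654, adjusted p = 4.68e-05). Of 22 tested clock genes, 2 (9.09%) were higher and 2 (9.09%) lower, and leaving out single libraries gave 1 to 3 higher and 0 to 3 lower. Wfdc1, a secreted protease inhibitor of stroma, had 103, 96.4 and 74.8 FPKM in treated SHR hearts, 37.2, 38.6 and 35.7 FPKM in SHR hearts, and 17.9, 21.8 and 18.6 FPKM in WKY hearts (log2 2.20, SE 0.117, adjusted p = 1.59e-06). Nr4a3, an orphan nuclear receptor induced early by many stimuli, had 7.74, 19.7 and 14.1 FPKM in treated SHR hearts, 3.81, 3.91 and 5.38 FPKM in SHR hearts, and 0.999, 2.29 and 0.675 FPKM in WKY hearts (log2 2.98, adjusted p = 0.000262). The immediate-early gene Fos was lower instead (log2 -1.36, adjusted p = 0.00606), at 3.69, 3.76 and 7.51 FPKM in treated SHR hearts and 12.5, 11.6 and 15 FPKM in WKY hearts. Angptl4, an inhibitor of lipoprotein lipase, had 1.02, 3.33 and 1.03 FPKM in treated SHR hearts and 8.83, 7.95 and 7.07 FPKM in WKY hearts (log2 -2.02, adjusted p = 0.00162). Of 10 fibroblast markers, 20% were higher (Dpt and Mgp) and 10% lower (Gsn). Mgp and Gsn were not called without WKY replicate 2, nor Gsn without WKY replicate 3 or treated SHR replicate 1. The 10 summed to 1013 to 1117 FPKM in treated SHR hearts and 1004 to 1082 FPKM in WKY hearts. Of 7 endothelial markers, Vwf was lower and no other was called (2 lower and 1 higher at an unadjusted limma p under 0.05).

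**Figure D4:**
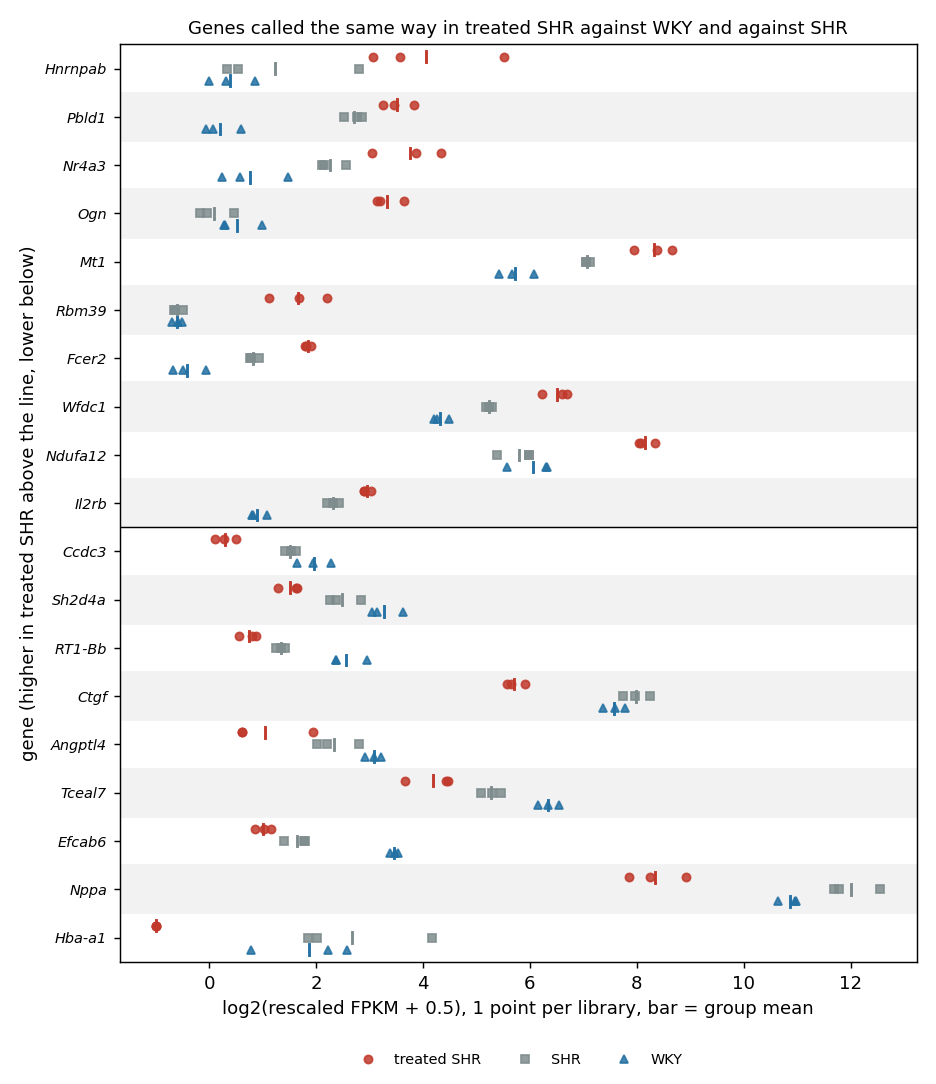
Levels of 19 named genes called the same way in treated SHR hearts against WKY and against SHR hearts, on a log2(rescaled FPKM + 0.5) axis with 1 point per library and a bar at the group mean. Treated SHR lies beyond both other groups for every gene. The genes were picked with no overlap of treated SHR and WKY values and with a called difference from SHR hearts. Hba-a1 is at the bottom of the scale because it is listed at 0 in the 3 treated libraries.

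**Figure D5:**
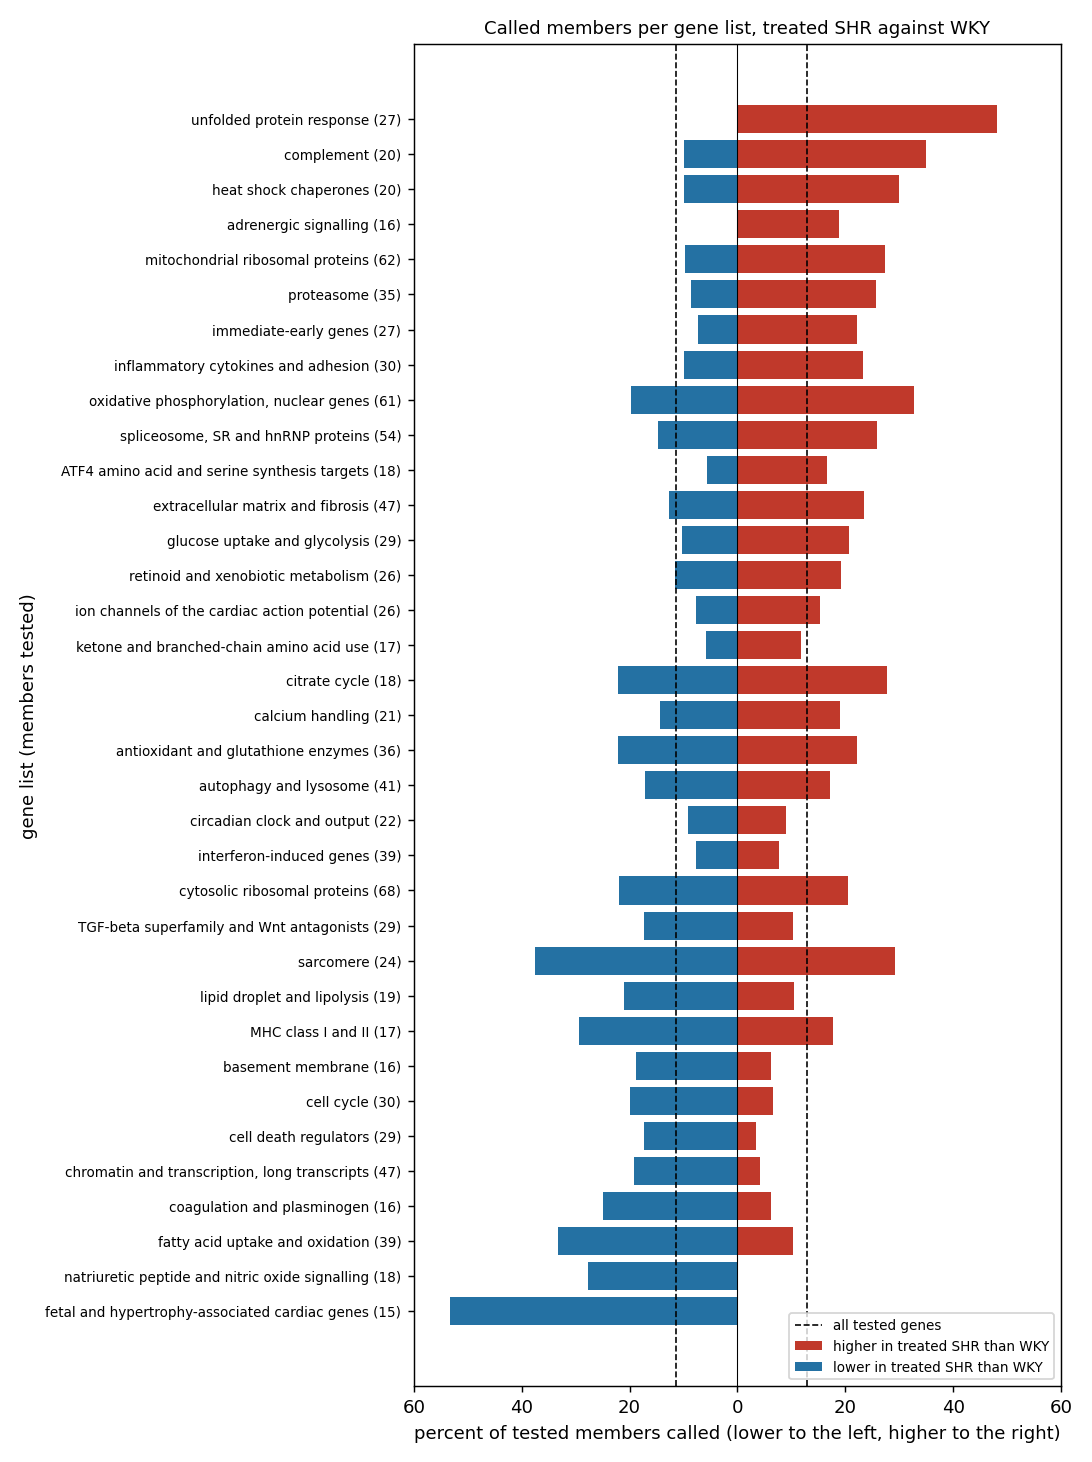
Percent of tested members called higher (right) and lower (left) in treated SHR than in WKY hearts for the 35 lists with 15 or more tested members. The dashed lines mark 12.9% and 11.4%, the shares over all tested genes. The unfolded protein response (48.1% higher) and the fetal and hypertrophy-associated genes (53.3% lower) stand at the ends.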

How the data were processed

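RNA-seq of rat heart was read from 1 table of FPKM values for 9 libraries. The FPKM values were deposited by the authors; the submitters' processing notes name Trimmomatic, HISAT2, Cufflinks, HTSeq, DESeq and the build Rnor_6.0, without versions or roles. Groups came from the sample labels. FPKM were divided by a median-of-ratios factor per library, computed over 9194 genes at 1 FPKM or more in every library. The filter kept the 11717 of 22601 genes that reached 0.5 rescaled FPKM in 3 libraries or more. Then log2(value + 0.5) was fitted with limma 3.58.1 in R 4.3.3, with 1 mean per group over all 9 libraries (6 residual degrees of freedom), a trended prior, two-sided tests and Benjamini-Hochberg adjustment over all tested genes. Figures and tables used Python 3.11.15, pandas 2.3.3 and matplotlib 3.10.9. The table gives no counts, so depth is unknown, and no interval for counting error is given.

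Symbols of 20633 genes (91.3%) matched the RefSeq gene table, and 27 symbols turned into dates by a spreadsheet were replaced by their gene ID's symbol. Genomic span comes from that table. Promoter windows are RefSeq's (GRCr8), and none of the positions given applies to Rnor_6.0.

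The comparison, the gene lists and the named genes were chosen with earlier results of these data known. Genes were named by a rule: the 10 largest log2 differences per direction in each class, up to 4 called genes of smallest p per list (or 2 genes where none was called), and a panel of cardiac and drug-pathway genes. Eno3, Spp1, Thbs4, Ppargc1a, Ankrd2, Hbb, Hspa5, Hsp90b1, Xbp1, Canx, Creld2 and Dnaja1 were added after their values were seen, and marker genes are named to describe their lists. Some genes that the rule names are not reported here, and they stay in every fit and count. Per-library values are given in replicate order.

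On simulated data for treated SHR against WKY (11717 genes), 50.7% of 67 genes changed by a log2 of 0.5 were called, 85.1% of 67 changed by 1, 100% of 66 changed by 2, and 0.0868% of 11517 unchanged genes. The changed genes had a mean log2 level above 1, and the noise was independent and normal. They were far fewer than the 2852 genes called in the data, so these shares may not carry over. Alternatives were no rescaling, quantile or cyclic loess normalization, pseudocounts of 1 and 0.1, no filter, robust moderation, array weights, a fit on the 6 treated SHR and WKY libraries, a replicate block, a log2 change of at least 1, removal of the trend on genomic span, and leaving out each library. Replicate numbers carry no stated pairing. Deviations of same-numbered libraries correlated at -0.062 to 0.083, and those of other-numbered libraries at -0.069 to 0.064. With 3 libraries per group, this cannot exclude a pairing.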

Additional observations from a re-analysis of the deposited data

How the results depend on the processing

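Of the 2852 genes called between treated SHR and WKY hearts, the count ranged from 1907 to 2947 over the alternatives, apart from the requirement of a log2 change of at least 1. With that requirement it was 272 (158 higher and 114 lower), with 110 genes left unlike WKY and 79 seen in treated hearts. Leaving out 1 library gave 1034 to 1496 higher genes (1513 with all) and 873 to 1273 lower genes (1339 with all), the lowest without WKY replicate 2. It gave 487 to 723 genes left unlike WKY (780 with all) and 1092 to 1417 genes seen in treated hearts (1592 with all). The 6 treated SHR and WKY libraries alone gave 2558 calls and no value for results that use SHR. With replicate number as a block, 2758 genes were called, 767 were left unlike WKY and 1545 were seen in treated hearts; the numbers share no stated pairing, and the calls of the block are given for completeness. Without the filter 2425 genes were called. More genes were then tested and the trended prior was fitted anew, and the part of each was not tested. Among named genes, 174 of 211 called kept their call in each of the 20 alternatives run for them (all but the minimum log2 change), and none of the 211 changed sign. Differences that were not called changed sign for Acta1 (-0.042 without treated SHR replicate 3, and up to 0.39 without treated SHR replicate 2) and Agtr1a (-0.33 without WKY replicate 1, -0.16 without treated SHR replicate 2, and up to 0.27 without WKY replicate 3), and the cause was not tested. FPKM without counts limits what can be said of genes under about 0.5 FPKM.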

Other observations

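Single genes of adrenergic signalling, cell death and the cell cycle differed between treated SHR and WKY hearts, in lists whose counts are read against 12.9% higher and 11.4% lower over all tested genes. Of 16 tested adrenergic genes, 3 (18.8%) were higher and 0 lower (4 and 0 at an unadjusted limma p under 0.05). Adrb1, the main beta-adrenergic receptor of the cardiac myocyte, had 14.6, 10.7 and 14 FPKM in treated SHR hearts, 7.18, 9.95 and 8.54 FPKM in SHR hearts, and 9.4, 9.53 and 7.89 FPKM in WKY hearts (log2 0.52, adjusted p = 0.0238). It was not called without WKY replicate 3, treated SHR replicate 1 or treated SHR replicate 3 (limma adjusted p up to 0.0822). Gnai2, an inhibitory G protein subunit, overlapped between the SHR groups, with 106, 107 and 114 FPKM in treated SHR hearts, 105, 107 and 112 FPKM in SHR hearts, and 77.1, 84.3 and 82.9 FPKM in WKY hearts (log2 0.42, adjusted p = 0.00125). Of 29 tested cell death regulators, 1 (3.45%) was higher and 5 (17.2%) were lower, and 8 were higher and 8 lower at an unadjusted limma p under 0.05. The 5 became 3 without WKY replicate 1, treated SHR replicate 1 or treated SHR replicate 2, and the 1 became 3 without treated SHR replicate 2. Bcl2l11 (Bim), which promotes apoptosis, had 2.31, 2.75 and 2.78 FPKM in treated SHR hearts and 4.18, 4.55 and 3.82 FPKM in WKY hearts (log2 -0.59, adjusted p = 0.00374). Of 30 tested cell cycle genes, 2 (6.67%) were higher and 6 (20%) lower, and the 2 became 1 without WKY replicate 2, WKY replicate 3, treated SHR replicate 2 or treated SHR replicate 3. Cdk4, a kinase of entry into the cycle, had 34.9, 37.7 and 36 FPKM in treated SHR hearts, 22.9, 22.1 and 25.3 FPKM in SHR hearts, and 17.9, 19.8 and 21.6 FPKM in WKY hearts (log2 0.86, adjusted p = 0.00011).

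Vessel-wall and coagulation genes gave further differences. F3, tissue factor, had 8.21, 7.99 and 12.6 FPKM in treated SHR hearts, 4.11, 3.65 and 3.65 FPKM in SHR hearts, and 5.8, 4.38 and 4.98 FPKM in WKY hearts (log2 0.84, adjusted p = 0.00467). Hspg2, perlecan of the basement membrane, had 17.6, 18.8 and 19.3 FPKM in treated SHR hearts, 32.2, 32 and 32.6 FPKM in SHR hearts, and 25.4, 27.3 and 27.8 FPKM in WKY hearts (log2 -0.52, adjusted p = 0.000555). Of 8 smooth muscle markers, 4 (50%) were higher in treated SHR than in WKY hearts. This count was 1 or 2 without treated SHR replicates 2 or 3 or any single WKY library. Smtn, smoothelin of contractile smooth muscle, had 17.7, 17.8 and 21.1 FPKM in treated SHR hearts, 11.7, 11.6 and 11.5 FPKM in SHR hearts, and 13.4, 11.9 and 13.4 FPKM in WKY hearts (log2 0.53, adjusted p = 0.0022). The mast cell protease Tpsb2 had 8.07, 6.34 and 6.29 FPKM in treated SHR hearts, 3.64, 2.1 and 1.16 FPKM in SHR hearts, and 3.68, 2.7 and 1.94 FPKM in WKY hearts (log2 1.20, adjusted p = 0.0142, and 0.0532 without WKY replicate 3). Of 47 long genes of chromatin and transcription, 2 (4.26%) were higher and 9 (19.1%) lower, and the 9 became 3 without WKY replicate 2, WKY replicate 3 or treated SHR replicate 1.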
